A study of Mus musculus with 23 samples.

Results

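Prl2c2, Mmp10, Plaur, Fgfbp1 and Pvr encode 5 proteins that cells secrete or carry on their surface and that act on growth, on the matrix around the cell or on contact between cells. They were taken by gene symbol, each with 1 probe on the array, so that 5 of the 24611 probes and 5 of the 15161 genes with a probe are described here. All 5 probes passed the filter on dim probes that left 9850 genes for testing. The genes were selected on the difference between cystamine and control arrays in this series, which was positive for each, and every comparison of cystamine with control below is therefore a description without a test.

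The arrays measured messenger RNA in the mouse striatal cell lines Q111 (mutant, from a model of Huntington disease) and Q7 (wild type), after a study that asked what inhibition of transglutaminase 2 does to transcription. The 8 groups were Q111 with cystamine at 250 µM for 12 h, Q111 with ZDON at 50 µM for 12 h, Q111 with Boc-DON at 50 µM for 12 h, Q111 control, and Q7 with the same 3 compounds and doses and Q7 control. Each group held 3 arrays, replicates 1, 2 and 3 on BeadChips 1, 2 and 3, except Q7 with Boc-DON, which held replicates 1 and 2. Cystamine is a disulfide that inhibits transglutaminases, and ZDON and Boc-DON are named in the labels without further description. The labels give the controls no dose and no time, so a vehicle or time in culture cannot be told apart from a compound. Each genotype is a single line, so the genotype and any other difference between the lines cannot be told apart. The labels do not say whether replicates were separate cultures. The p-values set a difference against the spread between these arrays, and whether they extend to new cultures is not known.

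Median intensity lay between 107.4 and 165 per array. Of the neural progenitor markers Vim averaged the 99.7th percentile within an array and 3 of 8 lay under the median (Pax6, Gsx2 and Dlx2), while 5 of 7 striatal projection neuron markers lay under the median and the highest of that list, Pde10a, at the 61.7th. All 3 microglia and all 4 endothelial markers lay under the median. Of the 7 fibroblast and mesenchymal markers 4 lay under the median (Pdgfra, Lum, Dcn and Thy1), with Lox the highest at the 85.9th percentile. The summed intensity of the 7 was 3682.8 to 9898.6 over the Q111 arrays and 1561.4 to 2914.5 over the Q7 arrays. Of the 5 tested, limma called 3 higher in untreated Q111 than in Q7. It was 4 with cystamine, 2 with ZDON and 1 with Boc-DON, and 0 were lower in any arm. At the looser threshold of an unadjusted p under 0.05, 5.96% of all genes were higher in control. That share was 9.14% with cystamine, 5.22% with ZDON and 4.42% with Boc-DON. Over the ZDON and Boc-DON arms together 4 of the 5 fibroblast and mesenchymal markers were higher, beside 1.86% of all genes. Of 6 tested neural progenitor markers 1 was called higher in Q111 in control, with ZDON and with Boc-DON, and 2 with cystamine. Of 5 tested striatal projection neuron markers 1 was called lower in each arm. Of all genes 0.497% were called lower in control, 0.853% with cystamine, 0.406% with ZDON and 0.183% with Boc-DON. The neuron, astrocyte, microglia and endothelial lists held no call. The part of these markers in the line differences below was not tested.

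Proliferin, the product of Prl2c2, is a secreted member of the prolactin family that the mouse placenta and growing mouse cell lines make and that promotes the growth of vessels. It binds the mannose 6-phosphate receptor Igf2r. Mmp10, stromelysin 2, is a secreted metalloproteinase that cuts matrix proteins. Fgfbp1 is a secreted carrier that frees fibroblast growth factors from the heparan sulfate of the matrix. Plaur is the receptor that holds the protease urokinase (Plau) at the cell surface, where it turns plasminogen into plasmin. Pvr is a surface protein of the immunoglobulin superfamily that binds nectins on neighbouring cells and receptors of natural killer and T cells. Metalloproteinase and urokinase receptor genes are classical targets of AP-1, a transcription factor made of Fos and Jun family subunits.

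The genes lie on different chromosomes apart from Plaur and Pvr, in the RefSeq annotation of GRCm38.p6. Prl2c2 is at chr13:12996120-13005393, Mmp10 at chr9:7502342-7510242, Fgfbp1 at chr5:43978858-43981828, Plaur at chr7:24460937-24475970 and Pvr at chr7:19903578-19921143. The 250 bases before the start used by the RefSeq promoter table were read for Mmp10, Plaur and Fgfbp1, the 3 of the 5 genes matched in it. The genes were chosen for their rise under cystamine, and a shared cause of that rise was not tested. The bases are printed 5′ to 3′ on the strand of the gene, with matches to the AP-1 site TGANTCA in capitals. The Mmp10 window is chr9:7502092-7502341 on the plus strand, the Plaur window chr7:24462233-24462482 on the plus strand and the Fgfbp1 window chr5:43981800-43982049 on the minus strand. The start of the table is the outer end of the gene range for Mmp10, but it lies 1546 bases inside that range for Plaur and 29 bases inside it for Fgfbp1, and the table does not name the transcript it belongs to.
Mmp10: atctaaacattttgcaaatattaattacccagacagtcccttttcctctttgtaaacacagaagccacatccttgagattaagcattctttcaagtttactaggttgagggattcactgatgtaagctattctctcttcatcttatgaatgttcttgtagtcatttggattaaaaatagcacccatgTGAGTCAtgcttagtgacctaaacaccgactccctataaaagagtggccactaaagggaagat
Plaur: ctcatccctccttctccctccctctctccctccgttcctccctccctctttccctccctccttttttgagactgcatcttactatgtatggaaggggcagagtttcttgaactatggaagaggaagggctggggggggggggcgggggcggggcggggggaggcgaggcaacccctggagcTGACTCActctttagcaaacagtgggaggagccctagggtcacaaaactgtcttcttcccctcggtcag
Fgfbp1: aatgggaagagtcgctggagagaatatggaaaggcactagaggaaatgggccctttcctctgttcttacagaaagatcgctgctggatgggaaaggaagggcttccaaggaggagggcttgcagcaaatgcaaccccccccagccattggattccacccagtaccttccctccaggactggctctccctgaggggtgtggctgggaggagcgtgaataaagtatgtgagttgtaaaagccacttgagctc

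The Mmp10 window held TGAGTCA 63 bases before the start of the table and TATAAA 29 bases before it. The Plaur window held TGACTCA 69 bases before the start of the table and the Fgfbp1 window held no match to TGANTCA. Of 32851 RefSeq promoter windows of 250 bases, 6.75% held TGANTCA on either strand and 7.59% held TATAAA on the strand of the gene. The core of the antioxidant response element, TGACNNNGC, which was searched on both strands and can share the letters TGAC with an AP-1 site, was in none of the 3 windows and in 10.2% of all. A match is a run of letters and was not measured as a binding site.

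Levels are given below as normalised intensity on a log2 scale, and a level is not comparable between probes. Within an array, the Plaur probe lay between the 81.3rd and the 92.2nd percentile of all probes, Prl2c2 between the 72.0th and the 98.2nd, Mmp10 between the 67.7th and the 86.6th, and Pvr between the 72.7th and the 81.3rd. Fgfbp1 was the dimmest, at the 48.7th to the 71.2nd percentile. The group means spread most for Prl2c2, by 4.62 on the log2 scale between the highest and the lowest of the 8 groups, and by 2.37 for Mmp10, 1.50 for Fgfbp1, 1.39 for Plaur and 0.90 for Pvr. For each of the 5 genes, Q7 with cystamine was the highest group.

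The order of the group means below it differed between the genes. For Prl2c2 it ran Q111 with cystamine, Q7 control, Q7 with ZDON, Q7 with Boc-DON, Q111 with ZDON, Q111 control and Q111 with Boc-DON, and among neighbours in that order only Q111 with ZDON and Q111 control overlapped. For Mmp10, Q7 control, Q111 with cystamine and Q7 with ZDON overlapped next to each other, followed by Q7 with Boc-DON, Q111 control, Q111 with ZDON and Q111 with Boc-DON, which were apart. For Plaur, Q111 with cystamine was second, and Q7 control, Q7 with ZDON, Q111 with ZDON and Q111 control followed, each 0.008 to 0.08 above the next, with overlapping arrays and less than the larger SD of each pair. The Boc-DON groups were the lowest for Plaur, with the Q7 mean above that of Q111 and overlapping arrays. For Fgfbp1, Q111 with cystamine was second and the Q111 groups with control, ZDON and Boc-DON came next, above the other groups of Q7. Its cystamine groups overlapped each other, as did neighbours from Q111 control down to Q7 control and the ZDON and Boc-DON groups of Q7. For Pvr each neighbour overlapped the next, from Q7 with cystamine, through Q111 with cystamine, Q7 with ZDON, Q7 with Boc-DON, Q111 with ZDON, Q7 control and Q111 with Boc-DON, to Q111 control.

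With cystamine the Prl2c2 level was 12.08, 11.84 and 12.73 on the Q111 arrays of replicates 1, 2 and 3, against 9.80, 9.51 and 9.23 on the Q111 control arrays. In Q7 it was 13.57, 13.34 and 13.51 with cystamine, against 11.35, 11.12 and 11.21 in control. Every cystamine array lay above every control array of its line, and the lowest Q111 array with cystamine lay above the highest Q7 control array. The difference was 2.70 (SE 0.20, 6.51-fold) in Q111 and 2.24 (SE 0.20, 4.74-fold) in Q7. Within the BeadChips it was 2.28, 2.33 and 3.50 in Q111, and 2.21, 2.22 and 2.30 in Q7. The Q111 value thus rested in part on chip 3, and was 2.31 without that chip. In RNA of whole cultures, more cells that make a transcript and more transcript per cell cannot be told apart. The probe cannot be assigned with certainty to 1 of the near-identical proliferin copies, since Prl2c3 had no probe under its symbol, and the Prl2c5 probe had an intensity of 68.5 to 130.1 and was not kept.

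The Mmp10 level in Q111 was 9.62, 9.53 and 9.94 with cystamine, against 9.04, 8.996 and 9.03 in control. In Q7 it was 10.85, 10.84 and 10.54 with cystamine, against 9.95, 9.84 and 9.81 in control. The arrays of cystamine and control did not overlap in either line, but the Q111 arrays with cystamine overlapped the Q7 control arrays. The difference was 0.68 (SE 0.12) in Q111 and 0.87 (SE 0.12) in Q7.

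For Fgfbp1 the Q111 arrays held 8.18, 8.50 and 8.56 with cystamine, against 7.66, 7.79 and 7.38 in control. The Q7 arrays held 8.43, 8.63 and 8.35 with cystamine, against 7.11, 7.23 and 7.21 in control. With cystamine the arrays of the lines overlapped, whereas every untreated Q111 array lay above every untreated Q7 array. The difference between cystamine and control was 0.80 (SE 0.13) in Q111 and 1.28 (SE 0.13) in Q7.

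The Plaur level in Q111 was 11.64, 11.49 and 11.62 with cystamine, against 10.86, 10.85 and 10.73 in control. In Q7 it was 11.75, 11.74 and 11.82 with cystamine, against 10.86, 11.07 and 10.81 in control. The 3 arrays of each cystamine group lay close together, and the difference was 0.77 (SE 0.15) in Q111 and 0.86 (SE 0.15) in Q7. Pvr held 9.97, 9.52 and 9.66 with cystamine in Q111, against 9.20, 8.83 and 8.92 in control. In Q7 it held 10.04, 9.71 and 9.90 with cystamine, against 9.44, 9.19 and 9.003 in control. The groups again did not overlap, and the differences, 0.73 (SE 0.14) in Q111 and 0.67 (SE 0.14) in Q7, were close to those of Plaur.

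All cystamine arrays lay above all control arrays of the line for 5 of the 5 genes in Q111, where this held for 7.09% of the 9850 genes, and for 5 of 5 in Q7, where it held for 5.53%. The genes were chosen for that rise. The response in Q111 minus that in Q7 was 0.46 (SE 0.28) for Prl2c2, −0.48 (SE 0.18) for Fgfbp1, −0.20 for Mmp10, −0.08 for Plaur and 0.06 for Pvr. Without BeadChip 3 it was 0.09 for Prl2c2, −0.74 for Fgfbp1 and −0.39 for Mmp10, and without Q111 cystamine replicate 3 alone it was 0.20 for Prl2c2. That of Pvr turned negative when Q111 cystamine replicate 1, Q111 control replicate 2, Q7 cystamine replicate 2 or Q7 control replicate 1 was left out, down to −0.07. When arrays were scaled to 1 median without quantile normalization, the median of all genes under cystamine was −0.11 in Q111 and −0.13 in Q7, and the median of the 5 genes was 0.58 in Q111 and 0.68 in Q7, against 0.77 and 0.87 with quantile normalization.

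**Figure D1:**
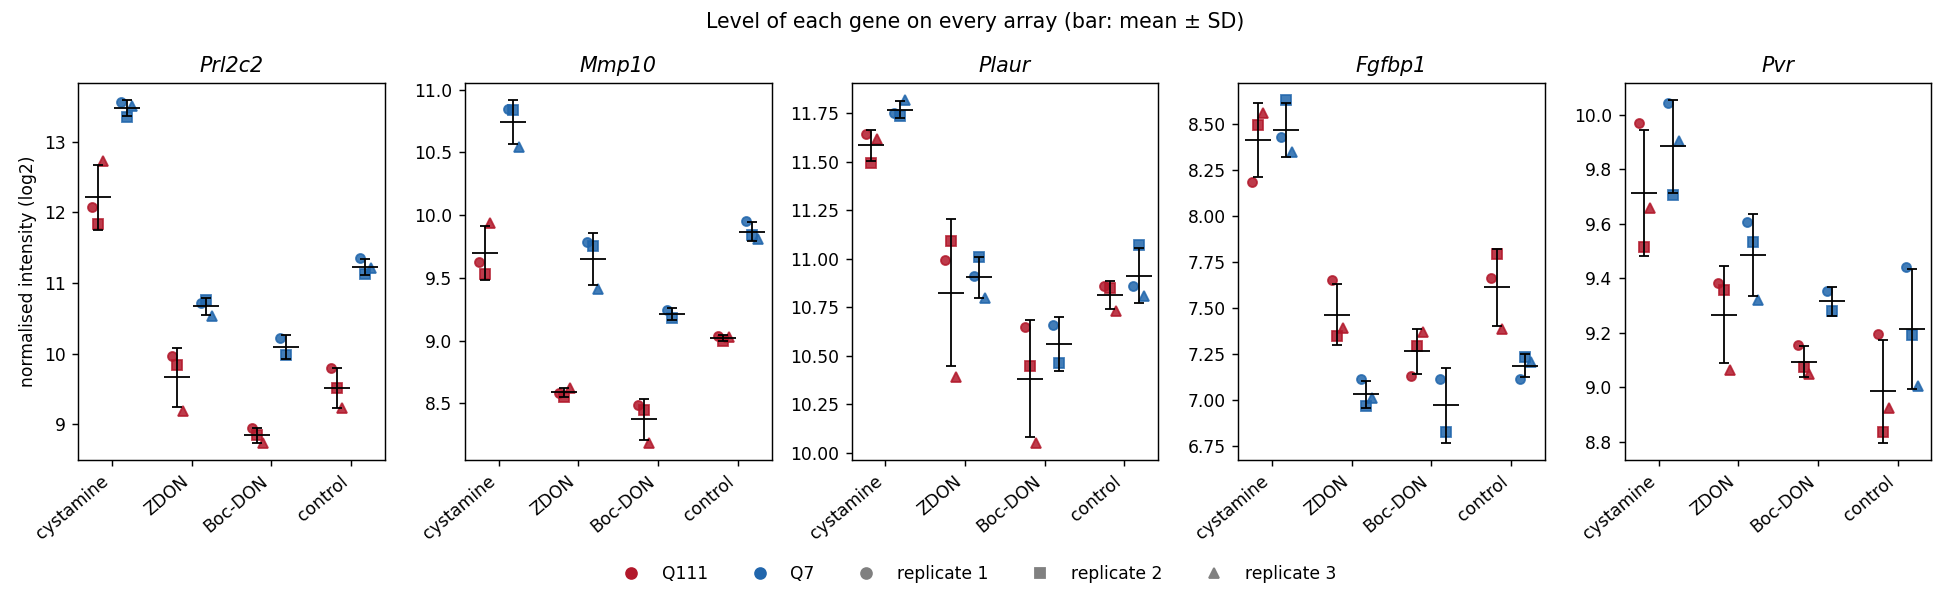
Normalised intensity (log2, vertical axis) of Prl2c2, Mmp10, Plaur, Fgfbp1 and Pvr on each of the 23 arrays by compound and line, with points for arrays, marker shapes for replicates and bars for the mean ± SD. The vertical scale differs between panels. Prl2c2 spans group means 4.62 apart and Pvr 0.90, and in each panel the Q7 cystamine group is the highest.

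The lines were compared within each arm, Q111 against Q7. Prl2c2 and Mmp10 were lower in Q111 in all 4 arms, and Plaur and Pvr passed the test in none. Limma called 2 of the 5 genes lower and 0 higher with cystamine (0.853% of all genes were called lower), with ZDON (0.406%), with Boc-DON (0.183%) and in control (0.497%). At an unadjusted p under 0.05, 1 of 5 was higher with ZDON, where 5.22% of all genes were, and 1 of 5 in control, where 5.96% were. That gene was Fgfbp1 in both. With cystamine and with Boc-DON 0 of 5 were higher at that level, beside 9.14% and 4.42% of all genes. The cystamine and control arms share their arrays with the comparison that chose the genes, and the ZDON and Boc-DON arms do not.

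Prl2c2 with ZDON was at 9.97, 9.84 and 9.19 in Q111, against 10.72, 10.76 and 10.54 in Q7. With Boc-DON it was at 8.95, 8.85 and 8.74 in Q111, against 10.22 and 9.98 in Q7. No Q111 array reached a Q7 array of the same arm. The difference was −1.26 (SE 0.20, adjusted p = 0.000771, limma) with cystamine and −1.01 (SE 0.20, adjusted p = 0.00904) with ZDON. It was −1.25 (SE 0.22, adjusted p = 0.00739) with Boc-DON and −1.72 (SE 0.20, adjusted p = 6.12e-05) in control, a level 3.29-fold lower in untreated Q111. The ZDON call was lost without Q111 ZDON replicate 3 (adjusted p = 0.0529, limma) and without Q7 ZDON replicate 2 (0.0568), and with the compared arrays fitted alone (0.0622). The Boc-DON call was lost without Q7 Boc-DON replicate 1 (0.204) or 2 (0.0899), where the lone Q7 array is assumed to vary like the other groups.

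The Mmp10 level with ZDON was 8.58, 8.55 and 8.62 in Q111, against 9.78, 9.75 and 9.41 in Q7. With Boc-DON it was 8.48, 8.44 and 8.19 in Q111, against 9.25 and 9.18 in Q7. These groups too were apart on every array. The difference was −1.04 (SE 0.12, adjusted p = 5.01e-05, limma) with cystamine and −1.06 (SE 0.12, adjusted p = 4.52e-05) with ZDON. It was −0.84 (SE 0.14, adjusted p = 0.00383) with Boc-DON and −0.85 (SE 0.12, adjusted p = 0.000432) in control. Within the BeadChips the untreated difference was −0.91, −0.84 and −0.78, and that with cystamine was −1.22, −1.30 and −0.60. The Boc-DON call was lost without Q7 Boc-DON replicate 1 (adjusted p = 0.127, limma) or 2 (0.0831), and with median scaling (0.0581).

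The mean line difference over the ZDON and Boc-DON arms, a comparison added after the data were seen, uses no array of the choice of genes. It was −1.13 for Prl2c2 (SE 0.15, adjusted p = 6.84e-05, limma) and −0.95 for Mmp10 (SE 0.09, adjusted p = 1.36e-06). Here 2 of 5 genes were called lower, beside 1.32% of all genes, and 1 higher, beside 1.86%. Leaving out any single array kept both lower calls. The gene called higher was Fgfbp1, at 0.36 (SE 0.10, adjusted p = 0.0377). Its call was lost when any of 6 of the 11 arrays was left out, namely Q111 ZDON replicate 1, Q111 Boc-DON replicates 2 and 3, Q7 ZDON replicates 2 and 3 and Q7 Boc-DON replicate 2 (adjusted p between 0.0622 and 0.247), and it was lost without BeadChip 3 (0.0534) and without the filter on dim probes (0.0566).

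Fgfbp1 with ZDON was at 7.65, 7.35 and 7.39 in Q111, against 7.11, 6.97 and 7.01 in Q7. With Boc-DON it was at 7.13, 7.29 and 7.37 in Q111, against 7.11 and 6.83 in Q7. The lines were apart in both arms, by a narrow margin with Boc-DON. The differences within arms did not pass the test, with 0.43 (SE 0.13, adjusted p = 0.146, limma) for ZDON, 0.29 (SE 0.14, 0.544) for Boc-DON, 0.43 (SE 0.13, 0.124) in control and −0.06 (SE 0.13, 0.873) with cystamine. Without Q111 control replicate 3 the untreated difference was 0.54 (adjusted p = 0.0455). Outside the cystamine arm Fgfbp1 had the only positive line differences among the 5 genes, except that the Plaur difference with ZDON was 0.06 with median scaling, 0.08 without BeadChip 3 and 0.14 without Q111 ZDON replicate 3.

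Plaur differed between the lines by −0.18 to −0.08 over the 4 arms (adjusted p of limma between 0.61 and 0.949), and Pvr by −0.23 to −0.17 (between 0.604 and 0.737). The 95% interval of the untreated difference ran from −0.42 to 0.22 for Plaur and from −0.52 to 0.06 for Pvr, so these arrays do not exclude a difference within these limits. Plaur arrays of the lines overlapped in the ZDON, Boc-DON and control arms. Averaged over the ZDON and Boc-DON arms, Pvr was at −0.22 (95% interval −0.439 to −0.004, unadjusted p = 0.0463, adjusted p = 0.329, limma). Plaur was at −0.13 in that comparison (adjusted p = 0.668, limma).

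**Figure D2:**
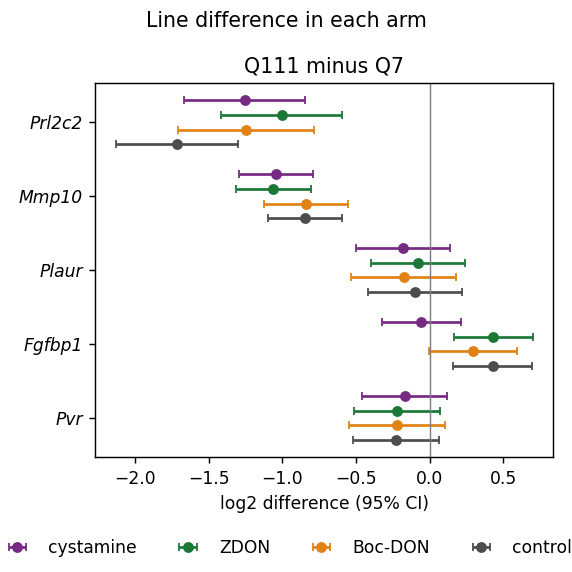
Log2 difference between Q111 and Q7 (horizontal axis, Q111 minus Q7) for each of the 5 genes (rows) in the cystamine, ZDON, Boc-DON and control arms, with 95% intervals from the limma model. Prl2c2 lies between −1.72 and −1.01 and Mmp10 between −1.06 and −0.84, while the intervals of Plaur and Pvr cross 0 in every arm.

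Boc-DON was then set against control within each line. Prl2c2 and Mmp10 passed the test when the lines were averaged, and both were lower with Boc-DON. All Boc-DON arrays lay below all control arrays for 4 of the 5 genes in Q111, beside 8.34% of all genes, and for 4 of 5 in Q7, beside 11.2%; Pvr was the exception in both lines. Limma called 1 of 5 genes lower in Q111, where 0.0406% of all genes were, and 0 of 5 in Q7, where 0.0102% were. At an unadjusted p under 0.05, 4 of 5 were lower in Q111 (4.62% of all genes) and 2 of 5 in Q7 (3.22%). These comparisons share their control arrays with the one that chose the genes.

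The gene called in Q111 was Mmp10, at −0.65 (SE 0.12, adjusted p = 0.0481, limma; 0.0121 with the replicate block). The call was lost without any single one of the 6 arrays compared (adjusted p between 0.117 and 0.287), and also without the filter on dim probes (0.0838), with median scaling (0.0884), with the compared arrays alone (0.126) and with all kept probes tested (0.0582). Its difference in Q7 was −0.65 (SE 0.14, adjusted p = 0.132; 0.0328 with the block). The Q111 difference of Prl2c2 was −0.66 (SE 0.20, adjusted p = 0.234). Its Q7 difference was −1.13 (SE 0.22, adjusted p = 0.096; −1.16 and 0.0258 with the block). With the block 2 of 5 genes thus passed in Q7, beside 0.244% of all genes lower. Within BeadChips 1 and 2, the chips that hold Q7 with Boc-DON, the Q7 difference of Prl2c2 was −1.14 and −1.15, and that of Mmp10 was −0.71 and −0.66. Without BeadChip 3, Prl2c2 passed in Q111 (−0.75, adjusted p = 0.034, limma) and in Q7 (−1.14, 0.00193), and Mmp10 passed in Q7 (−0.68, 0.00269).

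Averaged over the lines, in a comparison added after the data were seen, Prl2c2 fell by 0.90 with Boc-DON (−0.90, SE 0.15, 1.86-fold lower, adjusted p = 0.00619, limma) and Mmp10 fell by 0.65 (−0.65, SE 0.09, 1.57-fold lower, adjusted p = 0.000905). These were 2 of 5 genes lower and 0 higher, beside 0.629% of all genes lower and 0.345% higher. The Prl2c2 call was lost without Q7 Boc-DON replicate 2 (adjusted p = 0.064) and the Mmp10 call held without any single array. Plaur averaged −0.39 (SE 0.12, adjusted p = 0.112; 0.0232 with the block), Fgfbp1 −0.28 (SE 0.10, adjusted p = 0.185) and Pvr 0.11 (SE 0.10, adjusted p = 0.754).

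For Plaur the Boc-DON arrays held 10.65, 10.45 and 10.05 in Q111 and 10.66 and 10.46 in Q7. With ZDON they held 10.99, 11.09 and 10.39 in Q111 and 10.91, 11.01 and 10.80 in Q7. The Q111 arrays of replicate 3 were the lowest of both groups. Pvr with Boc-DON held 9.16, 9.08 and 9.05 in Q111 and 9.35 and 9.28 in Q7. With ZDON it held 9.38, 9.36 and 9.06 in Q111 and 9.61, 9.53 and 9.32 in Q7. Unlike those of the other genes, the Pvr means with ZDON and with Boc-DON lay above the control mean in both lines, though the Q7 difference with Boc-DON was −0.02 with median scaling and −0.0011 without BeadChip 3.

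ZDON against control changed none of the 5 genes past the threshold. Limma called 0 of 5 in Q111, where 0% of all genes were called, and 0 of 5 in Q7, where 0.0203% were. At an unadjusted p under 0.05, 1 of 5 was lower in Q111 (3.45% of all genes) and 1 of 5 in Q7 (2.58%), Mmp10 in Q111 at −0.43 (SE 0.12, adjusted p = 0.306) and Prl2c2 in Q7 at −0.56 (SE 0.20, adjusted p = 0.771). Every ZDON array lay below every control array for Mmp10 in Q111, 1 of 5 genes beside 6.42% of all, and for Prl2c2, Mmp10 and Fgfbp1 in Q7, 3 of 5 beside 4.47%. Prl2c2 in Q111 differed by 0.15 (95% interval −0.26 to 0.57), and Plaur by 0.01 in Q111 and −0.01 in Q7 (−0.31 to 0.33 and −0.33 to 0.31). Pvr differed by 0.28 in Q111 (adjusted p = 0.734) and 0.27 in Q7 (0.985). Averaged over the lines, limma called 0 of 5, beside 0.558% of all genes, and 1 of 5 was lower (4.68% of all genes) and 1 higher (4.94%) at an unadjusted p under 0.05, Mmp10 at −0.33 (adjusted p = 0.105) and Pvr at 0.28 (adjusted p = 0.315).

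ZDON and Boc-DON were given at the same dose and for the same time, and their comparison uses no array of the choice of genes. Limma called 0 of 5 genes in Q111 and 0 of 5 in Q7, where 0% of all genes were called in either line. At an unadjusted p under 0.05, 2 of 5 were higher with ZDON in Q111 (1.86% of all genes) and 2 of 5 in Q7 (2.62%). ZDON arrays lay above all Boc-DON arrays for Prl2c2 and Mmp10 in Q111, 2 of 5 genes beside 5.09% of all, and for Prl2c2, Mmp10 and Plaur in Q7, 3 of 5 beside 12.5%. The Prl2c2 difference was 0.82 in Q111 (95% interval 0.41 to 1.23, adjusted p = 0.346) and 0.57 in Q7 (0.11 to 1.04, adjusted p = 0.731). That of Mmp10 was 0.22 in Q111 (−0.04 to 0.47, adjusted p = 1) and 0.44 in Q7 (0.15 to 0.72, adjusted p = 0.679). Without BeadChip 3, Prl2c2 passed in Q111 (1.00, adjusted p = 0.0121, limma) and in Q7 (0.64, 0.0392), and Mmp10 passed in Q7 (0.56, 0.00856).

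Averaged over the lines, in a comparison added after the data were seen, ZDON and Boc-DON differed by 0.70 for Prl2c2 (SE 0.15, adjusted p = 0.0544, limma; 0.016 with the replicate block). The difference was 0.39 for Plaur (SE 0.12, adjusted p = 0.265; 0.0461 with the block), 0.33 for Mmp10 (SE 0.09, adjusted p = 0.223), 0.17 for Pvr and 0.13 for Fgfbp1. So 0 of 5 genes passed without the block and 2 of 5 with it, beside 0.213% and 0.832% of all genes, and 3 of 5 were higher at an unadjusted p under 0.05 (3.42% of all genes). Without Q111 ZDON replicate 3, Prl2c2 (adjusted p = 0.00908) and Plaur (0.0265) passed without the block as well. Cystamine was given at another dose and was not compared with these compounds.

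The responses of the lines to ZDON and to Boc-DON were compared for the 5 genes, and limma called 0 of 5 in either case, beside 0% of all genes. The largest of these differences, Q111 minus Q7, was that of Prl2c2 with ZDON, 0.71 (SE 0.28, 95% interval 0.13 to 1.29, adjusted p = 1), the 1 gene of 5 with an unadjusted p under 0.05 (1.27% of all genes were higher at that level). With Boc-DON the difference of Prl2c2 was 0.47 (SE 0.30, adjusted p = 0.999), that of Mmp10 0.01 (SE 0.18), and 0 of 5 genes had an unadjusted p under 0.05, at which 1.88% of all genes were higher and 1.37% lower.

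**Figure D3:**
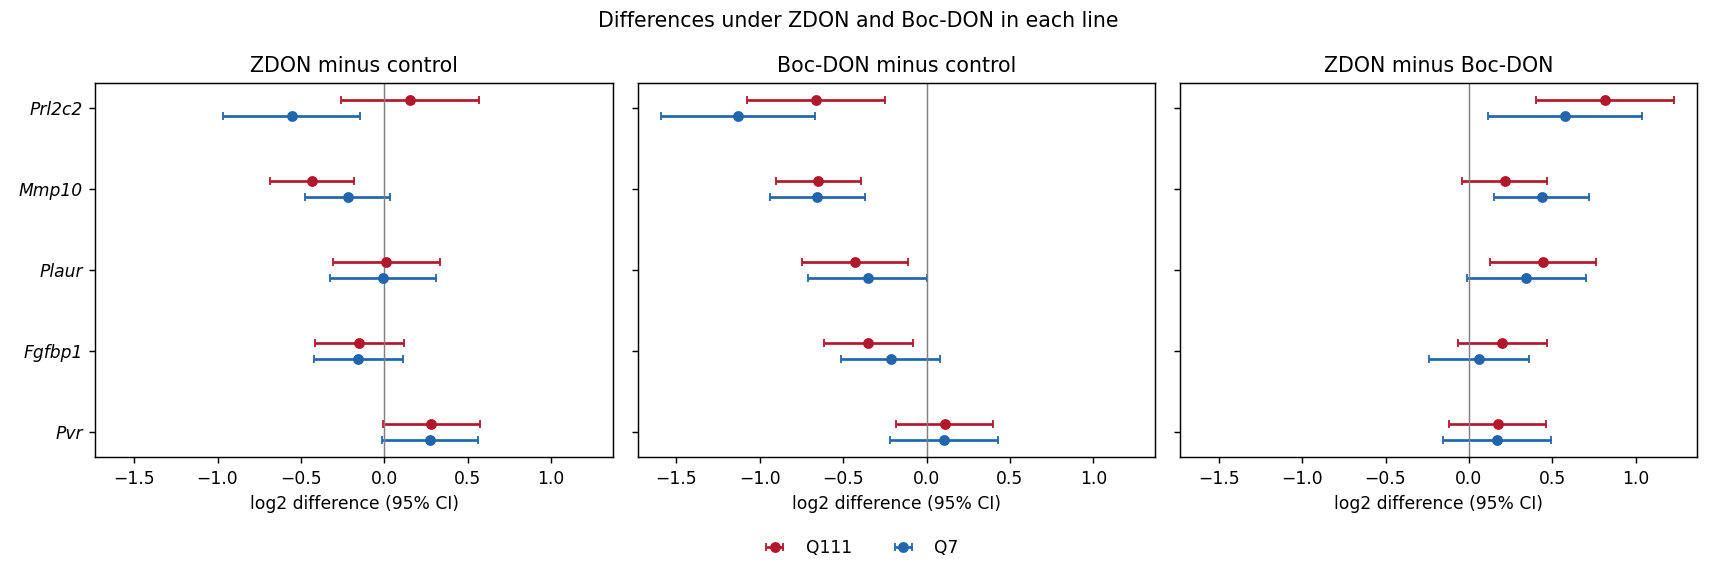
Log2 differences (horizontal axes, 95% intervals from the limma model) of ZDON minus control, Boc-DON minus control and ZDON minus Boc-DON for each of the 5 genes (rows), in Q111 and in Q7. Under Boc-DON, Prl2c2 lies at −0.66 in Q111 and −1.13 in Q7 and Mmp10 at −0.65 in both, while Pvr lies at 0.11 in Q111 and 0.10 in Q7.

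The other genes of the same pathways were described by lists of the plasminogen system, metalloproteinases and their inhibitors, fibroblast growth factor signalling, nectins and Pvr partners, the prolactin family, and AP-1 subunits. Without the 5 genes they held 76 tested genes. These lists were chosen with earlier results of the same data known, so their counts and p-values are not an independent test. Under cystamine 2 of the 76 were higher and 0 lower in Q111, where 0.64% of all genes were called, and 1 was higher and 0 lower in Q7, where 0.406% were. The median difference of the 76 was 0.08 in Q111 and 0.02 in Q7, against −0.01 for all genes in each line. At an unadjusted p under 0.05, 12 of the 76 were higher and 1 lower in Q111, beside 5.2% and 4.95% of all genes, and 7 were higher and 1 lower in Q7, beside 3.61% and 4.01%.

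The gene called in both lines was Fosl1, which encodes the AP-1 subunit Fra-1. In Q111 it was higher with cystamine by 1.02 (SE 0.16, adjusted p = 0.00144, limma), and in Q7 by 1.08 (SE 0.16, adjusted p = 0.000742). It was the only 1 of 12 tested AP-1 subunits called in either line without the block. At an unadjusted p under 0.05, 5 of the 12 were higher and 0 lower in Q111, beside 5.2% and 4.95% of all genes. In Q7 it was 2 higher and 0 lower, beside 3.61% and 4.01%. The median difference of the 12 was 0.30 in Q111 and 0.09 in Q7, against −0.01 for all genes in each line. With the block Maff, a small Maf protein, was called too, at 0.63 in Q111 (adjusted p = 0.0702, limma; 0.0248 with the block) and 0.62 in Q7 (0.102; 0.0407 with the block). With Boc-DON Fosl1 was lower by a mean over the lines of −0.52 (SE 0.12, adjusted p = 0.035), a call that was kept without Q111 Boc-DON replicate 2 or Q7 control replicate 3 and lost without any other of the 11 arrays (adjusted p up to 0.153) and without the filter on dim probes (0.0508). With ZDON its mean difference was −0.01 (SE 0.11, adjusted p = 0.991), and ZDON minus Boc-DON averaged 0.51 (adjusted p = 0.0896; 0.53 and 0.0144 with the block). Spry4, a feedback inhibitor of receptor tyrosine kinase signalling, was the other called gene, higher with cystamine in Q111 by 0.51 (SE 0.09, adjusted p = 0.00783) and at 0.38 in Q7 (adjusted p = 0.101). The Spry4 call was lost without Q111 cystamine replicate 1 (adjusted p = 0.0538), without Q111 control replicate 2 (0.0621), with median scaling (0.104) and with the compared arrays alone (0.248).

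The partners of the 5 proteins, named here for their roles after their values were seen, did not pass the test under cystamine. The Q111 difference of Plau, the ligand of Plaur, was 0.13 (SE 0.36, adjusted p = 0.941) and its Q7 difference 0.09 (0.998). Igf2r, which binds proliferin, differed by −0.01 in Q111 and −0.02 in Q7. Fgf2, a growth factor that Fgfbp1 carries, differed by 0.30 in Q111 (adjusted p = 0.566) and 0.22 in Q7 (0.872). Timp1, an inhibitor of metalloproteinases, differed by 0.17 in Q111 (adjusted p = 0.657) and 0.28 in Q7 (0.511). Plat, the tissue-type plasminogen activator, was at 0.42 in Q111 (adjusted p = 0.0769; 0.0355 with the block) and 0.47 in Q7 (0.0543; 0.0287 with the block). The list of the plasminogen system, 14 tested genes, thus held 0 called genes in each line without the block and 1 with it, with 2 higher in Q111 and 1 in Q7 at an unadjusted p under 0.05. Of the 15 tested metalloproteinases and inhibitors 0 were called in either line, with 1 lower in Q111 and 2 higher in Q7 at an unadjusted p under 0.05. The 7 tested nectins and Pvr partners held 0 called genes in either line and 0 at an unadjusted p under 0.05, and the 4 tested genes of the prolactin family and proliferin receptors held 0 called, with 1 higher in Q111 at that level. Of 26 tested genes of fibroblast growth factor signalling, Spry4 was the 1 called in Q111 and 0 were called in Q7, with 4 higher in Q111, and 2 higher and 1 lower in Q7, at an unadjusted p under 0.05.

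With ZDON against control 0 of the 76 genes were called in either line, and at an unadjusted p under 0.05 there were 4 higher and 1 lower in Q111, beside 3.41% and 3.45% of all genes, and 2 higher and 1 lower in Q7, beside 2.51% and 2.58%. With Boc-DON against control 0 were called in either line without the block, and with it Fosl1 was called lower in Q111 (−0.66, adjusted p = 0.103, limma; 0.028 with the block). At an unadjusted p under 0.05 there were 4 higher and 4 lower in Q111, beside 4.54% and 4.62% of all genes, and 2 higher and 8 lower in Q7, beside 4.32% and 3.22%. Averaged over the lines, Fgf10 was at −0.47 with Boc-DON (adjusted p = 0.0533, limma; −0.48 and 0.0271 with the block).

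Between the lines, without the block, 1 of the 76 genes was called higher and 0 lower in control, with ZDON and with Boc-DON. With cystamine 0 were called. Of all genes 0.497% were called lower in control, 0.406% with ZDON, 0.183% with Boc-DON and 0.853% with cystamine. Over the ZDON and Boc-DON arms together 1 of the 76 was higher and 0 lower, beside 1.86% and 1.32% of all genes. At an unadjusted p under 0.05, 7 were higher and 6 lower in control, beside 5.96% of all genes higher. With ZDON it was 3 and 5 (5.22%), with Boc-DON 2 and 2 (4.42%) and with cystamine 9 and 2 (9.14%). These shares are of genes higher, and the lower counts at that level are a description without a share beside them. The called gene was Fgf21, a hormone of the fibroblast growth factor family, in the opposite direction to Prl2c2 and Mmp10. It was higher in Q111 by 0.55 in control (SE 0.13, adjusted p = 0.0267, limma), by 0.76 with ZDON (adjusted p = 0.00241) and by 0.68 with Boc-DON (adjusted p = 0.0224), and it was at 0.46 with cystamine (adjusted p = 0.054; 0.0186 with the block). The ZDON call held without any single array, while the control call was kept without Q111 control replicate 3 and lost without any other array compared (adjusted p up to 0.207), and the Boc-DON call was kept without Q111 Boc-DON replicate 3 and lost without any other (up to 0.511). With the compared arrays fitted alone the control call (0.188) and the Boc-DON call (0.0524) were lost, and with median scaling the Boc-DON call (0.0541). With the block Mmp2, Mmp3 and Mafk were called as well, and they are named here after their values were seen. Mmp2, a gelatinase, was at 1.06 in untreated Q111 against Q7 (SE 0.45, adjusted p = 0.384, limma; 0.00183 with the block), a direction opposite to that of Mmp10. It was at 1.27 with cystamine (0.149; 0.000241 with the block), at 0.84 with Boc-DON (0.628; 1.19 and 0.0033 with the block) and at 0.66 with ZDON (0.775; 0.0805 with the block), and over the ZDON and Boc-DON arms it averaged 0.75 (0.295; 0.93 and 0.000245 with the block). Mmp3, stromelysin 1, was at −0.59 with cystamine (adjusted p = 0.162, limma; 0.01 with the block), and Mafk, a small Maf protein, at −0.60 in control (0.0707; 0.0489 with the block).

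The tested genes whose group means ran most like those of each of the 5 were found by the root mean square distance between centred profiles over the 8 groups, as a description. For Plaur these were Dusp6, a phosphatase of the kinase ERK, at a distance of 0.09, and the potassium channel gene Kcnn4 at 0.13, against a spread of Plaur itself of 0.44. Pvr was nearest to H2-DMa (0.09) and Cmtm3 (0.10), against its own spread of 0.29. Fgfbp1 was nearest to Btc, a ligand of the epidermal growth factor receptor, at 0.18, and to Adgre5 at 0.23 (own spread 0.55). Mmp10 was nearest to Rgs16, a regulator of G-protein signalling, at 0.23, and to the matrix gene Tnxb at 0.25 (own spread 0.71). Prl2c2 had the largest distances, with Gsta2, a glutathione transferase, at 0.65 and Rgs16 at 0.75, but also the largest own spread, 1.44. The means of Gsta2 were 11.42 in Q111 with cystamine and 11.67 in Q7 with cystamine, and the other 6 lay between 8.71 and 9.17. Its Q111 mean was below its Q7 mean in every arm, as for Prl2c2, but by less (8.75 against 8.91 in control).

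**Figure D4:**
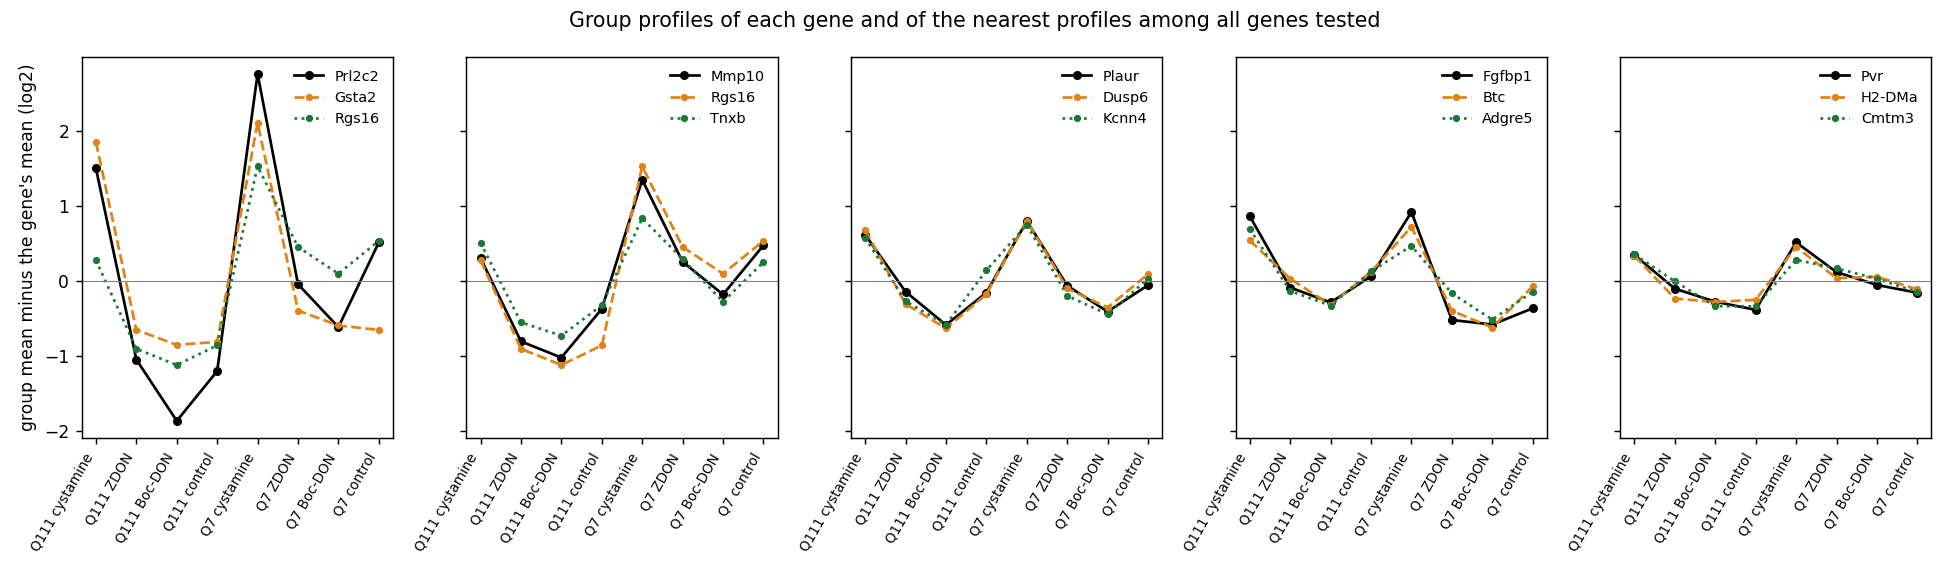
Group means minus the gene's own mean (log2, vertical axis) over the 8 groups for each of the 5 genes (black) and the 2 genes with the nearest profile (dashed and dotted). The lines of Dusp6 and Plaur lie 0.09 apart in root mean square, those of Gsta2 and Prl2c2 0.65.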

How the data were processed

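The samples were 23 total RNA preparations measured on Illumina mouse bead arrays. Probe intensity values without normalization were deposited, summarised with BeadStudio per the submitters' processing notes. A background subtraction at that stage is not stated in the labels. The authors' deposited log2 values match a quantile normalization of the log2 intensities to within 5e-09. A single column, 1 array, matched no labelled sample and was not used. Without detection p-values, a dim probe cannot be separated from an absent transcript.

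Here limma 3.58.1 (R 4.3.3) applied normexp with an offset of 50, then log2 and quantile normalization. The platform annotation gave 1 gene symbol to 19852 of the 24611 probes, several to 0 and none to 4759. A probe was retained if it exceeded its array's median on 2 or more arrays (15049 probes, 12505 of them with a symbol), and each of 9850 genes was read from its retained probe of highest mean. A single limma model held 8 group means with 15 residual degrees of freedom. Its p-values were adjusted by Benjamini-Hochberg over the 9850 genes of a comparison, at 0.05. The code was tested on simulated data.

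Replicate numbers follow the BeadChip in the descriptions and so pair the samples. Deviations from group means correlated across genes with a median r of 0.21 for array pairs of the same number (positive in 72 of 77), and of −0.11 for pairs of other numbers (positive in 44 of 154). Fits with this number as a block (13 residual degrees of freedom) are quoted where they change a call. The members and lists were chosen with earlier results of these data known. Named genes are the 5, list members past the threshold, the highest marker of a list and the 2 nearest profiles of each gene. Alternatives were the block, keeping dim probes, raw background, median scaling, the deposited values, fits of the compared arrays alone, all retained probes, and leaving out an array or BeadChip 3. Comparisons averaged over lines or arms were added after the data were seen. Promoters are RefSeq windows of GRCm38.p6.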

Additional observations from a re-analysis of the deposited data

How the results depend on the processing

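Of 1505 values of the 5 genes under the alternatives, 1439 kept their side of the threshold or moved by less than the spread, and 55 of these changed sign without passing the threshold in either setting. Of the others, 22 passed it anew, 27 no longer passed, 13 without a test moved by more than the spread and 4 without a test changed sign. Those 4 were the response of Pvr to cystamine in Q111 minus Q7, at −0.0559, −0.0689, −0.0170 and −0.0311, in a range of −0.0689 to 0.164 when 1 array was left out, beside 0.0584 with all arrays. The cause was not tested in any case below. The counts below are set without the share of all genes called in the same setting. A higher or lower count therefore cannot be read as particular to the 5 genes. The block raised the count of the 5 genes called to 2 in Boc-DON against control in Q7, to 3 lower over both lines, where it was 2, and to 2 in ZDON against Boc-DON over both lines, and it ended no call of the 5 genes. For Boc-DON against control in Q111 the count was 1, and it was 0 with no filter, 0 with median scaling, 0 with the compared arrays alone and 0 with every kept probe tested. For ZDON against Boc-DON over both lines, with a count of 0, it was 1 with no background correction, 1 with median scaling and 1 with the deposited values. The count between the lines was 1 with Boc-DON under median scaling and 1 with ZDON from the compared arrays alone, against 2 in each. The median of the 5 genes under cystamine was 0.58 in Q111 and 0.68 in Q7 with median scaling. Without BeadChip 3 the count was 2 in Boc-DON against control in Q111, 2 in Q7, 1 in ZDON against Boc-DON in Q111, 2 in Q7 and 3 over both lines, and 1 in ZDON against control over both lines. With 1 array left out, the count ranged over 0 to 0 for Boc-DON against control in Q111, 1 to 2 over both lines, 0 to 2 for ZDON against Boc-DON over both lines, 2 to 3 between the untreated lines, 1 to 2 with ZDON, 0 to 2 with Boc-DON and 2 to 3 over both of these arms. The median under cystamine ranged over 0.70 to 0.83 in Q111 and 0.85 to 0.98 in Q7. Fgfbp1 lay near the median intensity of its arrays, where the missing detection values leave low levels undetermined.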
